A study of Mus musculus with 2 samples.

Results

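Galectins are small proteins that bind beta-galactosides, the galactose-ended sugars on glycoproteins and glycolipids. The galectin genes Lgals1, Lgals3, Lgals4, Lgals8 and Lgals9 were measured here in G1E cells, 5 of the 43346 annotated genes in the tables. They were selected by name from the family, with their levels in these libraries already known, so the levels and the ratio between libraries given below are a description and carry no test. G1E is an immortalised mouse line of erythroid progenitors, Gata1-minus and male per the labels, so all cells measured carry the same genotype and no control line stands beside them. The labels also give a postnatal stage and an age of 0 day, and name no treatment and no time point. The data are poly(A) RNA-seq of single-end reads in 2 libraries, biological replicates 1 and 2 of 1 group. Both libraries cite the same biosample, and nothing beyond the replicate label shows separate cultures, and their spread may therefore be technical. With 1 library against 1 there is no test of the difference.

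Galectins are made in the cytosol without a signal peptide and leave cells by a route outside the classical secretory pathway. Outside the cell they cross-link glycoproteins such as integrins, CD45 and LAMP1 through N-acetyllactosamine, and inside it they bind Ras proteins, splicing factors and the sugars exposed on broken endosomes. Galectin-1 is a prototype galectin with a single sugar-binding domain that pairs into dimers, galectin-3 joins such a domain to a long flexible tail, and galectins 4, 8 and 9 carry a pair of different domains joined by a linker.

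The sequence that holds the sugar is shown because it is the feature the members share and because its number sets the members with a pair of domains apart. A His-x-Asn-Pro-Arg motif, where x is any residue, lies in the strand that contacts galactose. It was searched in the translated coding frames of GENCODE release M21, and 37 of 21562 genes with a complete coding frame held it, a share of 0.172%. Only 3 genes held it 2 times, and these were Lgals4, Lgals8 and Lgals9. Lgals1 and Lgals3 held it 1 time. Each line below gives 33 bases on the coding strand, read from the transcript sequences of that release, with the codons of the motif in capitals.

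Lgals1, codon 45 of 135, chr15:78929667-78929699, plus strand of GRCm38: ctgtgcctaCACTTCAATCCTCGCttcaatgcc
Lgals3, codon 172 of 264, chr14:47384633-47384665, plus strand: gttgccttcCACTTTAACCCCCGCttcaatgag
Lgals4, codon 63 of 326, chr7:28835870-28835902, plus strand: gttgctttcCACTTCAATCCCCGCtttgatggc
Lgals4, codon 240 of 326, chr7:28841182-28841214, plus strand: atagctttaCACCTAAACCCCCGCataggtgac
Lgals8, codon 64 of 316, chr13:12454864-12454896, minus strand: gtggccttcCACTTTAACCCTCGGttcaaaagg
Lgals8, codon 228 of 316, chr13:12447243-12447275, minus strand: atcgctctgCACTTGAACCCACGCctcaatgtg
Lgals9, codon 60 of 322, chr11:78973117-78973149, minus strand: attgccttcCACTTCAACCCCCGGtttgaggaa
Lgals9, codon 234 of 322, chr11:78965791-78965823, minus strand: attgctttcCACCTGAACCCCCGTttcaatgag

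Over the 15 capital letters, the site of Lgals1 shared 14 with the N-terminal site of Lgals4 and 12 with the site of Lgals3. The C-terminal site of Lgals9 was the least like it, with 10 letters shared. No member other than Lgals8 shared any exact 36-base word of its transcripts with the transcripts of another gene in that release. The search read the transcript strand only and did not cover opposite strands or near matches. It therefore cannot show that all reads could be told from those of other genes. In Lgals8, 65 of 3780 such words, 1.72%, also occur elsewhere, 60 of them in AC107765.2. This share leaves out the 155 exonic bases that overlap Heatr1 on the opposite strand, described below.

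Replicate 1 held 31645051 expected counts and replicate 2 held 56983558. Levels are in TPM, that is counts divided by effective length and set to a common total, with the value of each library before the mean ± SD. Protein-coding genes took 84.4% of the TPM in replicate 1 and 75.1% in replicate 2, so a TPM in replicate 2 is lowered a little by the other entries. In the list of erythroid progenitor markers, 10 of 10 genes reached 1 TPM in both libraries, beside 42.5% of protein-coding genes. Their summed level was 3463 TPM in replicate 1 and 3365 in replicate 2. These near-equal sums hold opposite differences. Hba-a1 had 496 TPM in replicate 1 and 1683 in replicate 2, and Tfrc had 48.4 and 139 TPM. Nfe2 had 423 and 125 TPM. On scaled counts 1 of the 10 was 2-fold higher in replicate 1 and 2 in replicate 2, beside 10.2% and 22.4% of genes tested. By TPM ratio these counts became 3 and 2. Markers of other cells that make galectins reached 1 TPM in both libraries less often than the 42.5% of protein-coding genes. These were 1 of 10 macrophage markers, 0 of 9 fibroblast and stroma markers, 0 of 10 epithelial markers and 2 of 8 lymphoid markers. No list for mast cells or megakaryocytes was compared, so the erythroid label was not tested against those cells.

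Lgals1 and Lgals9 were among the more abundant RNAs of these cells, Lgals8 was at an intermediate level, and Lgals3 and Lgals4 were near the limit of 1 TPM. Lgals1 stood at 2356 TPM in replicate 1 and 2284 in replicate 2, a mean of 2320 ± 51.5 TPM (SD, n = 2). This lay above 99.8% of protein-coding genes, at rank 46. Lgals1 lies on chromosome 15 from 78926725 to 78930465 of GRCm38. Only 1 transcript of it, Lgals1-201, was quantified, so its share of the gene could not vary. Release M21 also holds Lgals1-202, annotated for nonsense-mediated decay, which was not quantified. The libraries gave nearly the same level of Lgals1. Lgals9 stood at 1384 TPM in replicate 1 and 163 in replicate 2, and its mean of 774 ± 864 TPM (SD, n = 2) has an SD larger than the mean. That mean lay above 99.3% of protein-coding genes, at rank 143.

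Lgals8 had 36.5 TPM in replicate 1 and 51.7 in replicate 2, a mean of 44.1 ± 10.7 TPM (SD, n = 2) and above 86.4% of protein-coding genes. Galectin-8 is the member that marks damaged vesicles for autophagy in human cells. Lgals3 was at 1.96 TPM in replicate 1 and 1.36 in replicate 2, with a mean of 1.66 ± 0.42 TPM (SD, n = 2), on 35 and 58 counts. Lgals4, a galectin of the gut epithelium, was at 1.55 TPM in replicate 1 and 1.71 in replicate 2, with a mean of 1.63 ± 0.11 TPM (SD, n = 2), on 40 and 81 counts. These means lay above 57.7% and 57.5% of protein-coding genes, so the pair sat close to the middle of the annotated set. For Lgals3 the deposited credibility interval of TPM ran from 1.44 to 2.86 in replicate 1 and from 1.08 to 1.92 in replicate 2, and these overlap. The files do not state the level of this interval.

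Of the wider family, Lgals7, Lgals2, Lgals12, Lgalsl and Grifin were under 1 TPM in both libraries. Lgals7, a galectin of stratified epithelium, had 0.48 TPM in replicate 1 and 0.38 in replicate 2, on 8 and 9 counts. The others had at most 5 counts in replicate 1 and none in replicate 2. For Lgals2, whose 0.08 TPM in replicate 1 came from 1 count, a count of 0 in replicate 2 allows up to 0.123 TPM. For Grifin, a lens protein, counts of 0 allow up to 0.222 TPM in replicate 1 and 0.118 in replicate 2, limits of 3 counts that cover counting error only. In replicate 1, protein-coding genes without a count in replicate 2 had a median of 0.04 TPM, and a value that low in replicate 1 is read as background. In all, 5 of the 10 measured family genes reached 1 TPM in both libraries, and 42.5% of protein-coding genes did so. Lgals6, listed as a close relative of Lgals4, found no match by name and was not analysed here, so reads of such a copy could not be told from those of Lgals4.

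**Figure D1:**
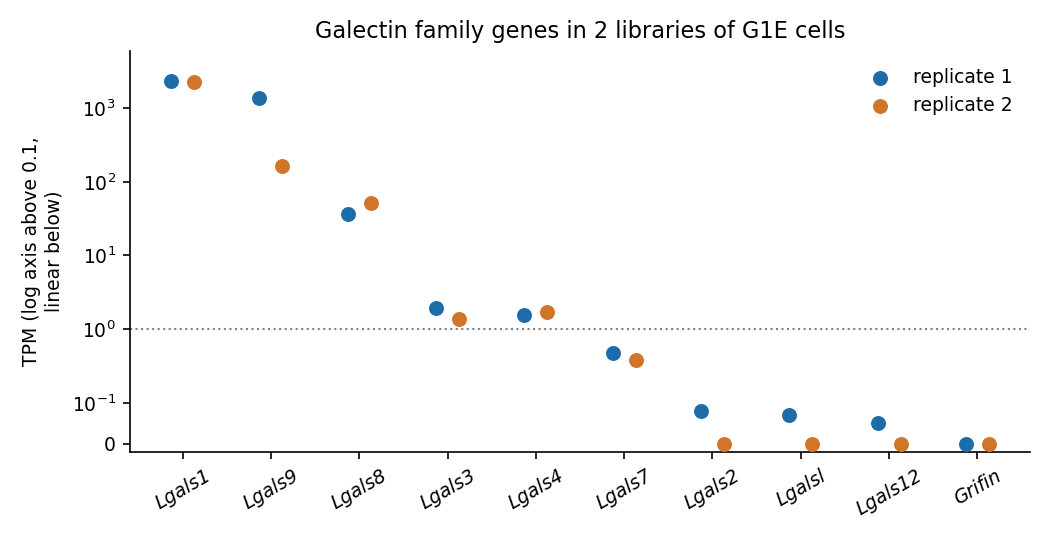
TPM of the 10 measured galectin family genes in replicate 1 (blue, left of each pair) and replicate 2 (orange), on an axis that is logarithmic above 0.1 and linear below; the dotted line marks 1 TPM. The 5 galectins described lie above the line in both libraries, and of these only Lgals9 shows points far apart, at 1384 TPM in replicate 1 and 163 in replicate 2.

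The order of the levels was Lgals1, Lgals9, Lgals8, and then Lgals3 and Lgals4. It was compared over the 10 pairs of members as differences of log2(TPM + 1), a pseudocount that understates differences of low genes. In 8 of the 10 pairs, the same member was at least 2-fold higher in both libraries. Lgals1 exceeded Lgals8 by 5.98 in replicate 1 and 5.44 in replicate 2 on this log2 scale, a mean difference of 5.71 ± 0.38 (SD, n = 2). Lgals9 exceeded Lgals8 by 5.21 in replicate 1 and by 1.64 in replicate 2. Lgals8 exceeded Lgals3 by 4.07 ± 0.58 and Lgals4 by 4.08 ± 0.29 (SD, n = 2 for both).

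The pairs without a 2-fold order in both libraries were Lgals1 with Lgals9 and Lgals3 with Lgals4. Lgals1 exceeded Lgals9 by 0.77 in replicate 1 and by 3.80 in replicate 2 on the log2 scale, so it was higher in both, but the mean difference of 2.28 ± 2.15 (SD, n = 2) is hardly larger than its spread. Lgals3 was above Lgals4 by 0.21 in replicate 1 and below it in replicate 2, a difference there of -0.20. The levels of Lgals3 and Lgals4 did not differ beyond their spread. As shares of all family TPM, Lgals1 took 62.3% in replicate 1 and 91.3% in replicate 2, Lgals9 took 36.6% and 6.51%, and Lgals8 took 0.965% and 2.07%.

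Lgals9 was the 1 member that stood apart between the libraries. On counts scaled by library size, its log2 ratio of replicate 1 over replicate 2 was 2.80, a 6.95-fold difference, from 47921 expected counts in replicate 1 and 10823 in replicate 2. The exact binomial interval of this ratio at 95% ran from 2.77 to 2.83 and covers counting error only. A gene was called apart at a 2-fold ratio with at least 50 counts in total. By this rule 1 of 5 members was apart, against 32.5% of all 12414 genes tested, so the count of members says nothing particular about galectins. In the direction of replicate 1 the members gave 1 of 5 and all genes 10.2%, and in the direction of replicate 2 they gave 0 of 5 and all genes 22.4%. The split of all genes apart depends on the scaling, since 31.2% of them were higher in replicate 1 here and 44.5% with scaling factors taken over expressed genes. That other scaling adds 0.26 to every log2 ratio.

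The ratio of Lgals9 lay above those of 95.5% of the genes tested, whose median was -0.28 and whose 95th percentile was 2.43. In TPM the difference was 8.49-fold. The deposited credibility intervals ran from 1318 to 1341 TPM in replicate 1 and from 154 to 160 TPM in replicate 2, and do not overlap. In the cells, fewer cells carrying this RNA and less of it per cell cannot be told apart. Marker genes of other cells also differed, many of them at low counts. Over all genes, low counts ran towards replicate 1. There, 7744 protein-coding genes had no count in replicate 2 and 3305 had none in replicate 1. Of genes apart with a minimum of 1 count, 75.7% were higher in replicate 1. The lymphoid list summed to 52.7 TPM in replicate 1 and 11.8 in replicate 2, most of it Ptprcap at 47.6 and 9.09 TPM. The macrophage list summed to 13.3 TPM in replicate 1 and 7.33 in replicate 2, most of it Cd68, a lysosomal protein, at 11.8 and 5.76 TPM. Adgre1, the macrophage marker F4/80, ran the other way, with 0.31 TPM in replicate 1 and 1.18 in replicate 2, and Marco and C1qa had no count in either library. Cd3e had 1.68 TPM in replicate 1 and 0.02 in replicate 2, and Cd3d, Cd4 and Cd8a were under 1 TPM in replicate 1 and at 0 counts in replicate 2. Lck, a lymphoid kinase, had 2.17 TPM in replicate 1 and 2.48 in replicate 2, a log2 ratio of counts of -0.56. The fibroblast and stroma list summed to 1.67 TPM in replicate 1 and 0.06 in replicate 2, and the epithelial list to 2.48 and 0.56 TPM. Their part in the Lgals9 difference was not tested. Nor was that of read length, which effective lengths imply was 36 bases in replicate 1 and 55 in replicate 2.

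**Figure D2:**
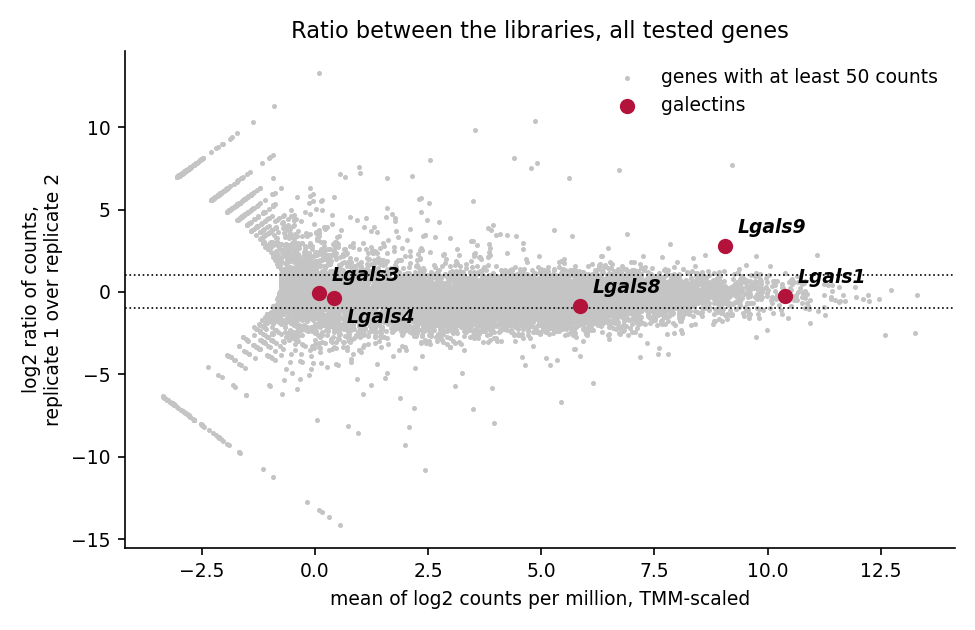
Log2 ratio of library-size-scaled counts, replicate 1 over replicate 2 (vertical axis), against the mean log2 CPM (horizontal axis) for the 12414 genes with at least 50 counts in total (grey) and the 5 galectins (red); dotted lines mark a 2-fold ratio in either direction. Lgals9 lies above the upper line at 2.80, and the other galectins lie between the lines.

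The other members were within 2-fold. Lgals8 had a log2 ratio of -0.83, with a counting interval from -0.92 to -0.75, which makes it 1.78-fold higher in replicate 2 on 1467 counts in replicate 1 and 4107 in replicate 2. It stayed lower in replicate 1 under every scaling tried. Lgals1 had a log2 ratio of -0.22 on 42106 and 77244 counts, and its sign turned with scaling over expressed genes, at 0.03, and in deposited TPM, at 0.04. Lgals4 had a ratio of -0.36 with an interval from -0.95 to 0.20. Lgals3 had a ratio of -0.08 with an interval from -0.73 to 0.55, and its sign turned with scaling by total counts, at 0.12, over expressed genes, at 0.17, and in deposited TPM, at 0.53. For Lgals3 and Lgals4 a difference between the libraries was thus not detectable at this depth.

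The genes next to the members were looked at for the same pattern. Lgals9 lies on the minus strand of chromosome 11 from 78962974 to 78984946. Ksr1, a scaffold of the Ras pathway 28493 bp away, had 4.82 TPM in replicate 1 and 0.78 in replicate 2, a log2 ratio of 2.22. Nos2, the inducible nitric oxide synthase gene 2719 bp away on the other side, had 2 counts in replicate 1 and 0 in replicate 2. Ksr1 thus also stood apart in the direction of replicate 1, at a far lower level. Of all genes tested, 10.2% were 2-fold higher in replicate 1. The neighbours of Lgals3 on chromosome 14 were at higher levels than Lgals3, with Mapk1ip1l at 69.1 and 38.3 TPM and Dlgap5, a spindle protein gene, at 68.5 and 39.5 TPM in replicates 1 and 2. Lgals3 itself runs from 47367751 to 47386160, and Dlgap5 lies 1618 bp beyond it. On chromosome 7, Lgals4 from 28833854 to 28841708 lies between Ech1, an enzyme of fatty acid oxidation at 77.4 TPM in replicate 1 and 69.1 in replicate 2, and Lgals7. Nol12 next to Lgals1 had 83.4 TPM in replicate 1 and 85.2 in replicate 2. Pdxp, on its other side, is not given a value here. Next to Lgals8, Edaradd had 0.35 TPM in replicate 1 and 0.23 in replicate 2, and Actn2, a muscle actinin, had 1 count in each.

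Lgals8 lies on the minus strand of chromosome 13 from 12439415 to 12464944 and overlaps Heatr1, a ribosome biogenesis gene on the plus strand, over 875 bp. Of the 3688 exonic bases of Lgals8, 155 are also exonic in Heatr1, which is 4.2%. Heatr1 had 57.4 TPM in replicate 1 and 78.5 in replicate 2, with a log2 ratio of -0.75, close to the -0.83 of Lgals8. Whether strand was used in counting is not given in the sources used here, so reads from that stretch could have been counted for either gene.

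Splicing of Lgals9 was the same in both libraries despite the difference in level. In mouse and human, galectin-9 is made with linkers of different length, and the longer linker comes from an extra exon. Lgals9-202, which lacks that exon and encodes 322 codons, took 93.37% of the gene's TPM in replicate 1 and 93.35% in replicate 2, a mean of 93.4% ± 0.014 (SD, n = 2). Lgals9-203, which has it and encodes 353 codons, took 5.77% in replicate 1 and 5.96% in replicate 2. A retained intron transcript, Lgals9-204, took 0.84% in replicate 1 and 0.70% in replicate 2. Transcripts that carry the linker exon summed to 6.61% of the gene's TPM in replicate 1 and 6.66% in replicate 2. The exon is shown in full because it is the only coding difference between the leading transcripts. It is 93 bases long, which keeps the frame and adds 31 codons, and it lies at chr11:78969714-78969806 on the minus strand.

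Lgals9 linker exon: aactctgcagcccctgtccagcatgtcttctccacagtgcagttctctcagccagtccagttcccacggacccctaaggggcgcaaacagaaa

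Both forms keep the pair of sugar sites printed above. In TPM, Lgals9-202 stood at 1292 in replicate 1 and 152 in replicate 2, and Lgals9-203 at 79.9 and 9.71. The short-linker form was thus the main one at either level of the gene, on 44830 and 10113 counts.

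**Figure D3:**
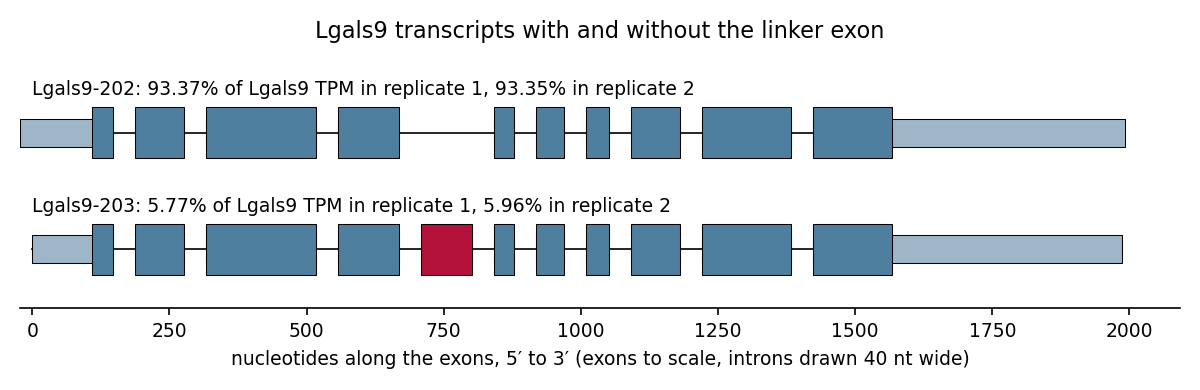
Exons of Lgals9-202 (above) and Lgals9-203 (below) to scale in nucleotides along the horizontal axis from 5′ to 3′, with every intron drawn 40 nt wide, except around the place of the linker exon, which Lgals9-202 leaves out; thick boxes are coding, thin boxes are untranslated, and the linker exon is red. The models differ in 1 coding exon of 93 nt, and the transcript without it held 93.37% of the gene's TPM in replicate 1 and 93.35% in replicate 2.

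Lgals8 was spread over many transcripts, and its leading transcript was not the same in the libraries. Effective lengths imply reads of 36 bases in replicate 1 and 55 in replicate 2. Whether this changes how reads are split among overlapping transcripts was not tested. Of 10 annotated transcripts, 7 reached 5% of the gene's TPM in either library. Lgals8-207 led in replicate 1 with 20.5%, against 4.06% in replicate 2, while Lgals8-206 led in replicate 2 with 21.9%, against 18.6% in replicate 1. Lgals8-201, the full-length form, took 12.6% in replicate 1 and 20.1% in replicate 2. Lgals8-208, also with a full frame, took 7.62% in replicate 1 and 8.46% in replicate 2. By level, Lgals8-207 had 7.47 TPM in replicate 1 and 2.10 in replicate 2, on 423 and 229 counts. Of those 7 transcripts it was the 1 with a higher TPM in replicate 1.

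The coding forms of Lgals8 differ in the number of sugar sites they keep. Lgals8-201, Lgals8-202, Lgals8-203 and Lgals8-208 encode 316 or 325 codons and hold both sites, and they summed to 20.2% of the gene's TPM in replicate 1 and 28.9% in replicate 2. Lgals8-206 and Lgals8-207 are annotated with a frame of 223 codons that holds 1 site, and they summed to 39.1% in replicate 1 and 25.9% in replicate 2. The means were 24.6% ± 6.12 and 32.5% ± 9.31 (SD, n = 2 for both), so neither class led beyond the spread. The remainder was largely retained intron transcripts, Lgals8-210, Lgals8-204 and Lgals8-205, at 39.3% in replicate 1 and 43.9% in replicate 2. As shares of counts these transcripts weigh less, because Lgals8-205 and Lgals8-210 are short, 441 and 579 bases in the tables. Lgals8-205 held 2.94% of the gene's counts in replicate 1 and 2.32% in replicate 2. By the same measure Lgals8-210 had 5.12% in replicate 1 and 4.37% in replicate 2, and the longer Lgals8-201 held 19.8% in replicate 1 and 30.8% in replicate 2. The exon missing from Lgals8-207 is shown because that transcript differed most in share between the libraries among those of Lgals8. This exon is not the only difference from Lgals8-201, which has 2736 bases against 2457 in Lgals8-207. It is 89 bases long, which is no multiple of 3, and it lies at chr13:12456344-12456432 on the minus strand. It was carried by 55.0% of the gene's TPM in replicate 1 and 65.4% in replicate 2. The rest is not all skipping, since Lgals8-204, Lgals8-205 and Lgals8-209, short models of 2 or 3 exons, do not carry it either. Lgals8-207 itself held 20.5% in replicate 1 and 4.06% in replicate 2.

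Lgals8 exon skipped in Lgals8-207: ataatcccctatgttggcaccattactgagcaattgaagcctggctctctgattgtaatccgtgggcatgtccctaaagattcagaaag

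Transcript shares of Lgals3 and Lgals4 rest on few reads. In Lgals3, Lgals3-204, with the full frame of 264 codons, took 48.0% in replicate 1 and 78.8% in replicate 2. By the deposited posterior mean its share was lower, 24.7% in replicate 1 and 48.2% in replicate 2. Lgals3-205, with a frame of 139 codons that ends before the sugar site, took 52.0% in replicate 1 and 11.8% in replicate 2, on 13.8 and 4.1 expected counts. These frames are those of release M21, in which Lgals3-204 and Lgals3-205 are longer, at 1298 and 646 bases, than in the deposited tables, at 999 and 613 bases. Lgals3-201 had no count in replicate 1 and took 9.37% in replicate 2. In Lgals4, Lgals4-201, with 326 codons, led in both libraries with 61.1% in replicate 1 and 52.8% in replicate 2. Retained intron transcripts of Lgals4, such as Lgals4-204, Lgals4-203 and Lgals4-205, summed to 21.9% in replicate 1 and 42.0% in replicate 2. Lgals4-206, annotated for nonsense-mediated decay, took 16.9% in replicate 1 and 5.20% in replicate 2.

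**Figure D4:**
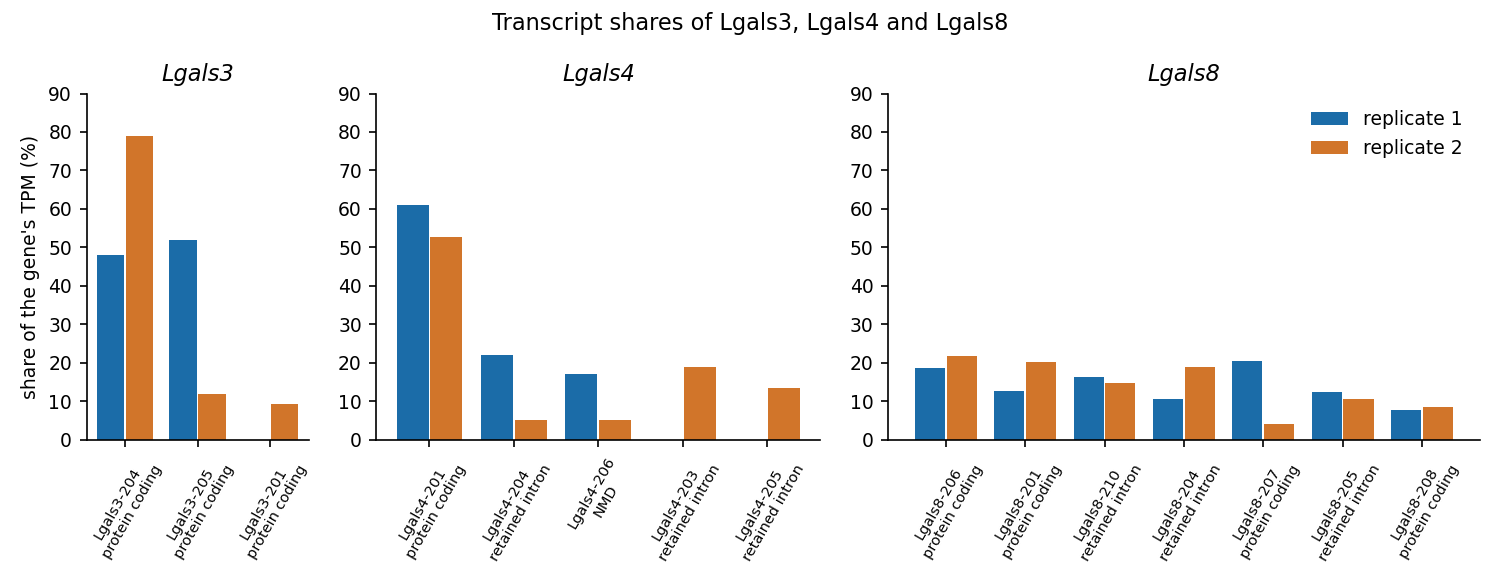
Share of the gene's TPM in percent (vertical axis, from 0) for the transcripts of Lgals3, Lgals4 and Lgals8 with at least 5% in either library, in replicate 1 (blue, left) and replicate 2 (orange, right); the annotated type stands under each name. Lgals8-207 took 20.5% in replicate 1 and 4.06% in replicate 2, and Lgals3-205 took 52.0% and 11.8%.

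Proteins that galectins bind at the cell surface were mostly expressed, with 14 of 22 listed genes at 1 TPM or more in both libraries, beside 42.5% of protein-coding genes. The partner and enzyme lists were chosen with earlier results of these data known, so this share and those of the lists below are description only. Bsg, the glycoprotein basigin, had 434 TPM in replicate 1 and 410 in replicate 2. P4hb, a disulfide isomerase that galectin-9 binds at the surface of T cells, had 299 TPM in replicate 1 and 417 in replicate 2. Lamp1, a lysosomal membrane glycoprotein, had 293 and 195 TPM, and Spn, the sialomucin CD43 that galectin-1 binds, had 260 and 136 TPM. All of these were thus well above the level of Lgals8. Members under 1 TPM in both libraries were Ptprc, Insr, Alcam, Nrp1, Thy1, Cd69 and Tnfrsf25. Ptprc encodes CD45, a galectin-1 partner of lymphocytes, and had 0.88 TPM in replicate 1 and 0.10 in replicate 2. In this list 5 of 17 tested genes were 2-fold higher in replicate 1 and 4 in replicate 2, beside 10.2% and 22.4% of all genes tested. Scaled over expressed genes these counts became 5 and 2, and by TPM ratio 5 and 3. The list's median log2 ratio was 0.08, beside -0.28 over all genes tested.

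Some surface partners that the rule for names leaves out were picked after their values were seen. Itga5, the alpha chain of a fibronectin receptor, had 55.2 TPM in replicate 1 and 4.28 in replicate 2, a log2 ratio of 3.39 in the direction of Lgals9. Itgb1, the beta chain that pairs with it, had 25.3 TPM in replicate 1 and 88.2 in replicate 2, a log2 ratio of -1.96. Lgals3bp, a secreted glycoprotein named for binding galectin-3, had 31.6 TPM in replicate 1 and 11.7 in replicate 2, a log2 ratio of 1.12. Havcr2, which encodes TIM-3, a receptor described for galectin-9 on T cells, had 10.3 TPM in replicate 1 and 16.5 in replicate 2.

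Intracellular partners were nearly all expressed, with 16 of 17 listed genes reaching 1 TPM in both libraries and none under it in both, again beside 42.5% of protein-coding genes. Ctnnb1, beta-catenin, which galectin-3 binds, had 534 TPM in replicate 1 and 260 in replicate 2, while its log2 ratio of scaled counts was -0.16, in the other direction. Sqstm1, the autophagy receptor p62, had 249 TPM in replicate 1 and 211 in replicate 2. Pdcd6ip, the vesicle-sorting protein ALIX, had 158 and 53.0 TPM, and Hras, the Ras protein that galectin-1 holds at the membrane, had 70.8 and 69.3 TPM. Between the libraries 2 of 17 were 2-fold higher in replicate 1 and 1 in replicate 2, beside 10.2% and 22.4% of all genes, with a median log2 ratio of -0.21. Scaled over expressed genes these counts became 3 and 0, and by TPM ratio 5 and 0.

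Enzymes that build the sugars galectins bind were partly expressed. In the list for N-glycan branching and N-acetyllactosamine, 10 of 15 genes reached 1 TPM in both libraries, beside 42.5% of protein-coding genes. Mgat4b, which adds a branch, had 68.0 TPM in replicate 1 and 58.4 in replicate 2. Mgat2 had 23.4 and 57.5 TPM, Man2a2 had 54.8 and 17.4 TPM, and Mgat1, which starts complex N-glycans, had 34.7 and 34.0 TPM. Mgat5, whose beta-1,6 branch favours galectin-3 binding, was under 1 TPM in both, with 0.91 TPM in replicate 1 and 0.01 in replicate 2 on 83 and 4 counts. Man2a1, B4galt4 and B4galt2 were under 1 TPM in both as well. Of 12 tested genes, 2 were 2-fold higher in replicate 1 and 2 in replicate 2, beside 10.2% and 22.4% of all genes, with a median log2 ratio of -0.39.

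Of enzymes that limit galectin binding or trim sialic acid, 3 of 6 reached 1 TPM in both libraries, beside 42.5% of protein-coding genes. None of the 4 tested was 2-fold apart, beside 32.5% of all genes. Fut8, the core fucose enzyme, had 54.8 TPM in replicate 1 and 45.4 in replicate 2. The sialidase genes Neu1 and Neu3 had 10.3 and 5.66 TPM in replicate 1 and 6.72 and 6.98 TPM in replicate 2. St6gal1, whose alpha-2,6 sialic acid blocks galectin-1, had 0.17 TPM in replicate 1 and 0.20 in replicate 2, on 16 and 38 counts. Mgat3, which adds the bisecting sugar, had 0.02 TPM in each library. St6gal2 had 3 counts in replicate 1 and 0 in replicate 2.

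Of the partner and enzyme lists, that of mucin-type O-glycans lay furthest from the median of all genes, with a median log2 ratio of -1.43. Of 6 tested genes, 1 was 2-fold higher in replicate 1 and 5 in replicate 2, beside 10.2% and 22.4% of all genes. Scaled over expressed genes these counts became 1 and 3, and by TPM ratio 1 and 2. In expression, 6 of 8 listed genes reached 1 TPM in both libraries, beside 42.5% of protein-coding genes. Galnt1, which starts O-glycans, had 14.4 TPM in replicate 1 and 23.6 in replicate 2. Gcnt1, which makes the core 2 branch recognised by galectin-1, had 9.83 TPM in replicate 1 and 22.9 in replicate 2. Galnt7 had 6.55 and 11.6 TPM. The 1 gene in the other direction was St3gal1, which caps core 1 with sialic acid, with 25.7 TPM in replicate 1 and 8.70 in replicate 2. Galnt2 and Galnt3 were under 1 TPM in both libraries.

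**Figure D5:**
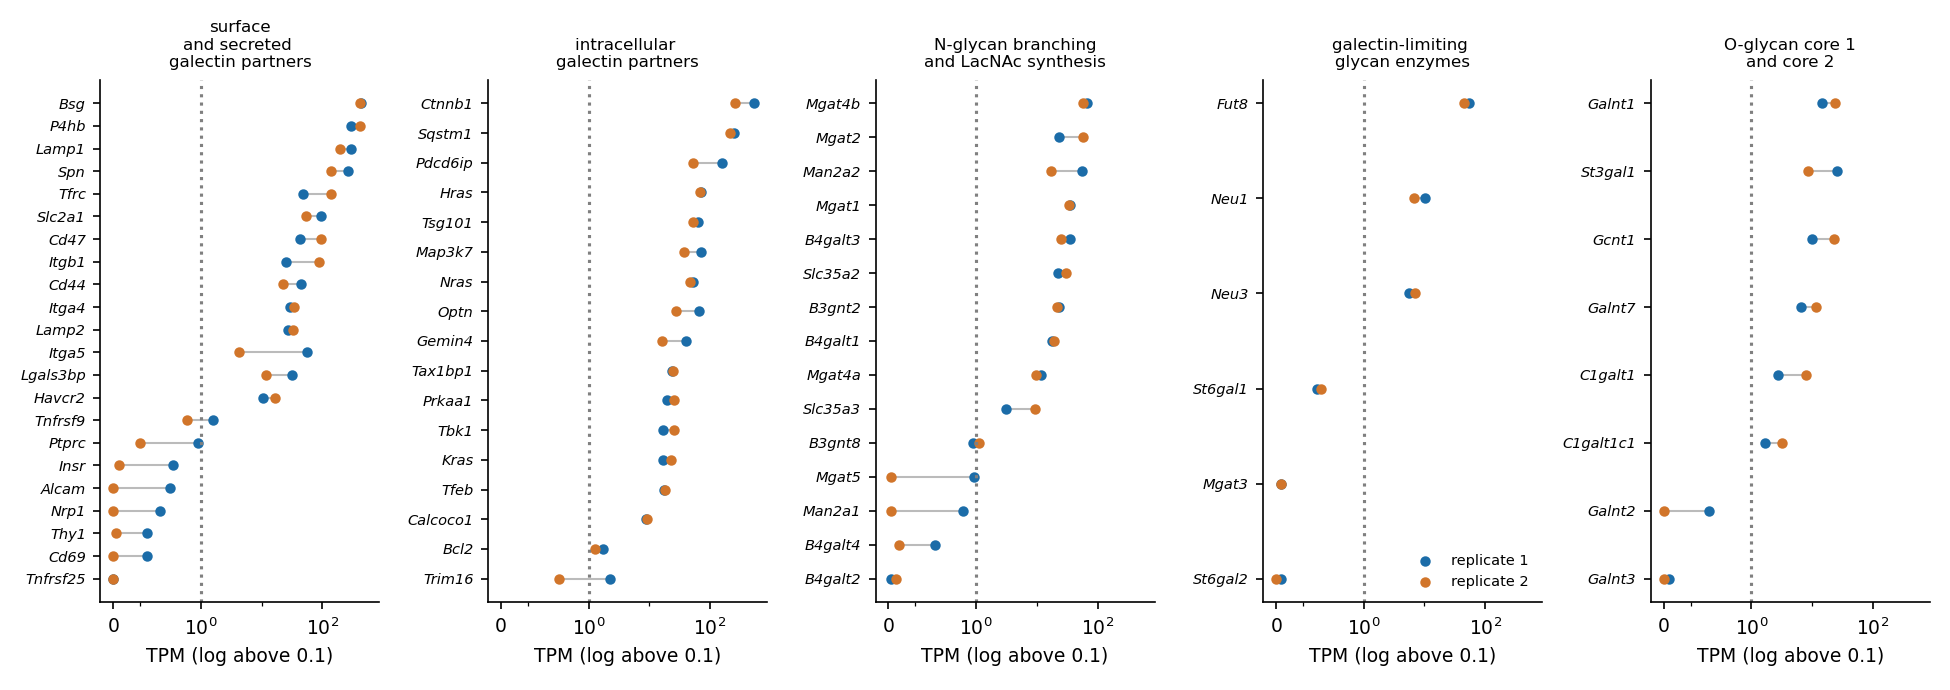
TPM of each listed gene in replicate 1 (blue) and replicate 2 (orange), joined by a line, in 5 panels for surface and secreted partners, intracellular partners, N-glycan branching, limiting enzymes and O-glycan enzymes; the axis is logarithmic above 0.1, and the dotted line marks 1 TPM. Intracellular partners lie right of the line in both libraries except Trim16, and Itga5 shows the widest gap among the expressed surface partners.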

How the data were processed

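Each library came with 1 gene table and 1 transcript table, made separately on assembly mm10 with gene annotation M4, per the deposited notes. No aligner or quantifier is given in the sources used here. The deposited expected counts are estimated reads per feature without normalisation. The deposited TPM values are counts per effective length scaled to a fixed total, per the file headers. Signal columns deposited beside them give a posterior mean of TPM and credibility bounds of unstated level. The deposited percent columns give a transcript's share of its gene's TPM. Effective lengths imply reads of 36 bases in replicate 1 and 55 bases in replicate 2.

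Names, positions and sequences came from GENCODE M21 of GRCm38, matched on gene identifiers without version for 42462 of 43346 genes. Of the members' 26 deposited transcripts, 23 have the same length in M21, and Lgals3-203, Lgals3-204 and Lgals3-205 differ. Entries that name no gene held 0.0363% of counts in replicate 1 and 0.00942% in replicate 2 and were left out. Expected counts were rounded, scaled by TMM factors of 1.07 and 0.934 (edgeR 4.0.16, R 4.3.3) and compared after adding 0.5. Ratio intervals are exact binomial (Clopper-Pearson) at 95%. Alternatives used DESeq2 1.42.0 size factors, total counts, TPM, other thresholds and other pseudocounts. The steps were also run on simulated counts in which far fewer genes changed than differ between these libraries. That run therefore does not show how well the scaling suits them. Tables and figures were made in Python 3.11.15 with scipy 1.17.1, pandas 2.3.3, numpy 2.4.6 and matplotlib 3.10.9.

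The members and gene lists were chosen with earlier results of these data known. Named genes are the members, the other measured family genes, the next protein-coding genes, transcripts with at least 5% of a member, and of each partner or enzyme list up to 4 genes of highest mean TPM and those under 1 TPM in both libraries.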

Additional observations from a re-analysis of the deposited data

How the results depend on the processing

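Over 46 results, 215 alternatives were tried, and 6 of those for counts of genes or pairs and 35 of those for single values moved past their limit. That limit was a 1.5-fold change for counts, and the SD or counting interval for single values. Leaving out 1 library moves a mean of 2 by no more than their SD. Those alternatives for levels, level differences and transcript shares could therefore not pass the limit, and their count as unmoved shows no stability. For Lgals9, levels of 163 and 1384 TPM thus counted as unmoved from 774. Among ratios between libraries, a change of sign was counted only for a main ratio of 2-fold or more. Lgals9 alone had such a ratio, and its sign held. Signs of the smaller ratios of Lgals1 and Lgals3 turned, as given above. The count of members apart was 1 of 5 by the 2-fold rule and became 2, Lgals9 and Lgals8, at a ratio of 1.5. The 4038 genes apart became 6491 at a ratio of 1.5, 2187 at a ratio of 3, 19178 with a minimum of 1 count and 2197 with a minimum of 500 counts. These last counts come from other sets of genes tested. The 5 family genes expressed became 3 at 2 TPM, since Lgals3 and Lgals4 lie below it. Scaling over expressed genes was added after seeing the data. It left 1 member apart and moved the share of genes apart that were higher in replicate 1 to 44.5%, against 31.2%, total counts moved it to 41.2%, and TPM to 52.4%. It was 75.7% with a minimum of 1 count and 15.2% with a minimum of 500 counts. The log2 ratio of Lgals9 ran from 2.80 to 3.09 over all alternatives, and that of Lgals8 from -1.03 to -0.50. Without replicate 1 or replicate 2, a level is that of the other library. No paired analysis was possible because there is 1 group. Depth limits Lgals3 and Lgals4, at 35 and 40 counts in replicate 1, and their transcript shares.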
